A study of Mus musculus with 5 samples.

Results

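The cyclins, kinases and inhibitors that act in G1 were followed in RNA-seq libraries of EpH4 cells, a spontaneously immortalized and non-transformed mouse mammary epithelial line. The 10 genes were taken as a named list: the D-type cyclins Ccnd1, Ccnd2 and Ccnd3, the E-type cyclins Ccne1 and Ccne2, the kinases Cdk4 and Cdk6, and the inhibitors Cdkn1b, Cdkn2a and Cdkn2b. Of these 10 genes, 8 were among the 12934 genes in the deposited counts, and all 8 entered the test. Cdkn2a and Cdkn2b were not among the listed genes, and their RNA was not analysed here.

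All cells in both groups expressed Cas9 from a lentivirus and grew in serum-containing medium. The sgControl group (3 libraries) carried a control guide RNA. The sgMef2d group (2 libraries) carried a guide against Mef2d, which encodes a MADS-box transcription factor. Per the study's methods, cells were selected with blasticidin for Cas9 and puromycin for the guide and kept as stable clones. Which guide each sgMef2d library carried, the number of clones and the time between infection and harvest are not given in the sources used here. Nothing in the labels says that libraries of a group came from separate cultures, so p-values measure the spread between these libraries, which may be technical. The comparison of the groups asks which transcripts depend on MEF2D.

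D-type cyclins bind CDK4 and CDK6 in response to growth signals, and cyclin E binds CDK2. Together these kinases phosphorylate the retinoblastoma protein, which frees E2F factors to transcribe the genes of DNA replication. The products of Cdkn2a and Cdkn2b (p16INK4a and p15INK4b) block CDK4 and CDK6, whereas p27KIP1, the product of Cdkn1b, binds cyclin-CDK complexes and restrains cyclin E-CDK2. In mammary epithelium cyclin D1 is known for its part in alveolar growth and for its frequent overexpression in breast cancer, and p27 is regulated largely through its degradation, which RNA counts do not show.

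The libraries held 13601145 to 20498563 counts, and levels are given as CPM, counts scaled to 1000000 a library with its TMM factor. On this scale 3 counts were worth 0.146 to 0.221 CPM. sgControl replicate 1 stood apart from the other sgControl libraries. Its counts gave a chi-square of 10.6 and 13.7 per degree of freedom against replicates 2 and 3, whereas it was 2.01 between replicates 2 and 3 and 2.04 between the sgMef2d libraries. Between libraries of different groups the chi-square was 11 to 13.1. By this measure sgControl replicate 1 differed from its own group about as much as the groups differed. Its log2 CPM correlated at 0.992 and 0.991 with replicates 2 and 3, beside 0.984 to 0.986 between the groups. Comparisons are therefore also given without sgControl replicate 1. Mef2d itself was at 64.3, 76.9 and 71.5 CPM in the sgControl libraries and at 64.2 and 65.8 CPM in the sgMef2d libraries (log2 fold change -0.12, SE 0.0799, adjusted p = 0.4 in edgeR's quasi-likelihood test), and without sgControl replicate 1 the difference was -0.19 (adjusted p = 0.0055). A frameshift need not lower RNA, so this level does not check the labels. Of 10 mammary epithelial markers, 9 were listed, with a summed level of 4125 to 4330 CPM in sgControl and 3935 to 4102 CPM in sgMef2d, Cldn4 being called higher (log2 fold change 0.26) and Krt18 lower (-0.26). Of 6 myoepithelial markers, 3 were listed and the others (Myh11, Cnn1 and Oxtr) were not. Their sum was 455 to 460 CPM in sgControl and 899 to 955 CPM in sgMef2d, carried by Krt14, while Krt5 went from at most 0.146 CPM to at least 14.2 CPM and Acta2 fell. Of 7 fibroblast markers, 5 were listed (574 to 676 against 527 to 568 CPM, with Col3a1 and Dcn higher and Col1a2 lower). Of 5 endothelial markers, 0 were listed, and of 6 immune markers, Cd68 and Csf1r were listed at a sum of 3 to 4.11 CPM. The part of the keratin and collagen changes in the values below was not tested. In bulk RNA a lower value from fewer cells of a type cannot be told apart from less RNA per cell.

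Cdkn1b was lower in the sgMef2d libraries and Ccnd2 was higher, whereas Ccnd1, Ccnd3, Ccne1, Ccne2, Cdk4 and Cdk6 did not pass the threshold. Cdkn1b RNA fell by 0.35 on the log2 scale, to 213 CPM from 272 CPM. Ccnd2 RNA rose 4.23-fold from a level near the detection limit, but Ccnd2 passed the low-count filter only through the sgMef2d libraries and so had to be higher there. Thus, 1 of the 8 listed genes was called higher and 1 lower at an adjusted p below 0.05, when 7.95% of the 12483 genes tested were called in either direction, 3.67% higher and 4.28% lower. The groups did not overlap in CPM for 5 of the 8 genes (Ccnd2, Ccnd3, Ccne1, Ccne2 and Cdkn1b), beside 41.1% of all genes tested. When sgControl replicate 1 was left out, 5 were called higher (Ccnd2, Ccnd3, Ccne1, Ccne2 and Cdk4) and 1 lower (Cdkn1b), but so were 29.4% of all genes in either direction. Over the 8 genes the fold changes had a median of 0.10 on the log2 scale, beside 0.0031 over all genes.

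**Figure D1:**
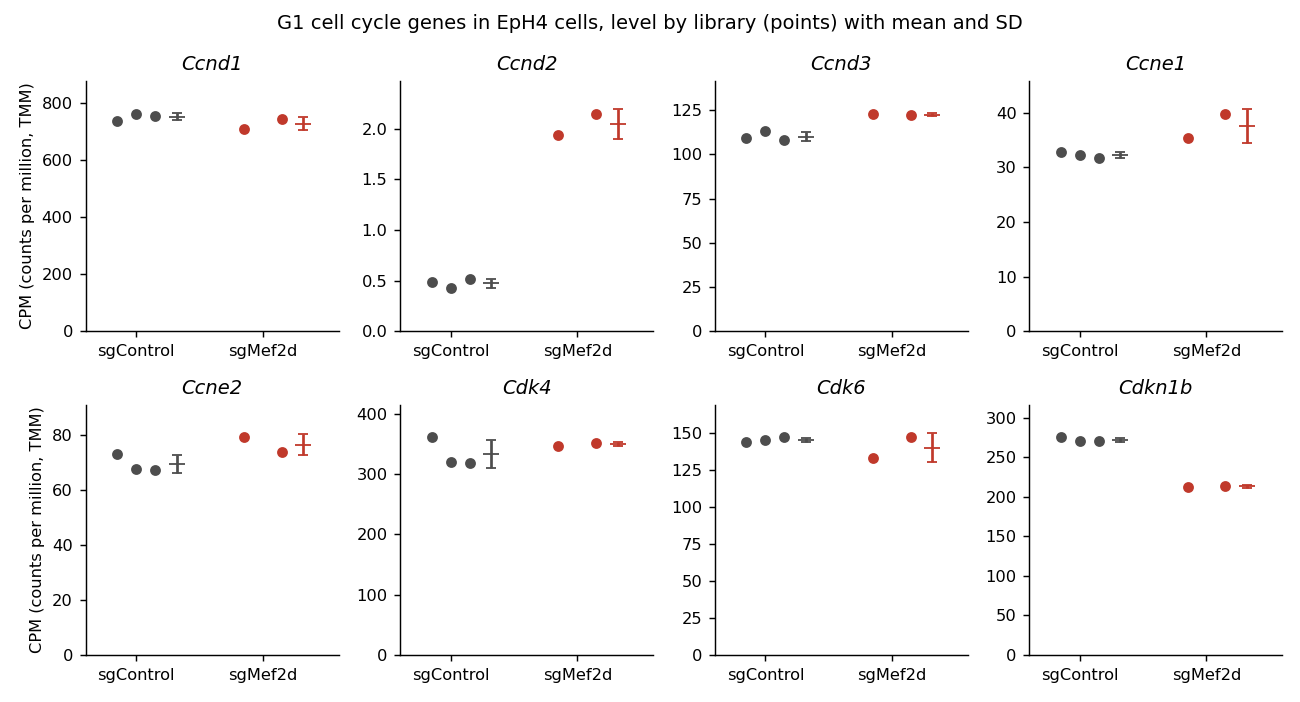
CPM of the 8 listed genes in each library (y axes, CPM, a separate linear scale for each gene), with 1 point a library and a bar at each group mean. The sgMef2d points lie below every sgControl point for Cdkn1b (212 and 214 against 270 to 275 CPM) and above them for Ccnd2 (1.94 and 2.15 against 0.425 to 0.513 CPM).

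Ccnd1 encodes cyclin D1, the D-type cyclin with the most RNA in these cells. The gene (ENSMUSG00000070348.5) lies on chromosome 7 at 144929931 to 144939925 in GRCm38. Its level was 737, 761 and 752 CPM in the sgControl libraries and 709 and 741 CPM in the sgMef2d libraries. The groups overlapped, since sgMef2d replicate 2 lay between sgControl replicates 1 and 3. sgControl averaged 750 ± 12 CPM (SD, n = 3) and sgMef2d 725 ± 23 CPM (SD, n = 2), and the log2 fold change was -0.05 (SE 0.0566, 95% interval -0.17 to 0.08, adjusted p = 0.657). On the opposite strand, 1100 exon bases of Ccnd1 overlap LTO1, which was at 29 to 32.1 CPM in every library. The libraries mark strand, but whether the counting used it is not given in the sources used here.

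Ccnd3, which encodes cyclin D3, was the other D-type cyclin with substantial RNA. The gene (ENSMUSG00000034165.16) lies on chromosome 17 at 47505051 to 47599691. It was at 109, 113 and 108 CPM in sgControl and at 123 and 122 CPM in sgMef2d. Both sgMef2d libraries were above the highest sgControl library. The difference was 0.15 on the log2 scale (SE 0.058, 95% interval 0.03 to 0.28) and did not pass the threshold over all genes (adjusted p = 0.135), whereas without sgControl replicate 1 the adjusted p was 0.0122. Ccnd3 shares 361 exon bases with Bysl on the opposite strand, and Bysl was itself higher in sgMef2d (log2 fold change 0.26, adjusted p = 0.0255). In addition, 1.99% of its 50-base words recur in the annotated transcripts of 24 other genes, so a part of its reads may have been split or dropped. Of these genes, the pseudogene Ccnd3-ps shares the most words.

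Ccnd2 encodes cyclin D2, which acts with the same kinases as cyclins D1 and D3. The gene (ENSMUSG00000000184.12) lies on chromosome 6 at 127125162 to 127152193. It received 10, 6 and 7 counts in the sgControl libraries (0.488, 0.425 and 0.513 CPM) and 33 and 32 counts in the sgMef2d libraries (1.94 and 2.15 CPM). Each sgMef2d library thus held more Ccnd2 reads than any sgControl library. The fitted log2 fold change was 2.08 (SE 0.336, 95% interval 1.34 to 2.82, adjusted p = 0.00325), which describes these counts and is no independent evidence, given how Ccnd2 passed the filter. Summed over libraries, 23 counts in sgControl gave 0.477 CPM (exact 95% Poisson interval 0.303 to 0.716) and 65 counts in sgMef2d gave 2.03 CPM (1.57 to 2.59), intervals that cover counting error only.

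Under a filter of at least 50 counts in 2 libraries Ccnd2 was not tested, and without sgMef2d replicate 2 its adjusted p was 0.0544. Even in sgMef2d it stayed far below its relatives. Per length, Ccnd2 accounted for 0.031%, 0.0261% and 0.0322% of D cyclin RNA in sgControl and for 0.124% and 0.133% in sgMef2d. Its exons overlap 9330179D12Rik and Gm43126 on the opposite strand by 740 bases, and neither of these is listed.

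Cdk4 encodes the main partner kinase of the D-type cyclins by RNA level in these cells. The gene (ENSMUSG00000006728.12) lies on chromosome 10 at 127063534 to 127067920. Its level was 361, 320 and 319 CPM in sgControl and 347 and 352 CPM in sgMef2d. sgControl replicate 1 was the highest of all 5 libraries, 13.2% above the mean of replicates 2 and 3, and the sgMef2d libraries lay between it and the other controls. The fitted difference was 0.07 on the log2 scale (SE 0.0667, 95% interval -0.08 to 0.21, adjusted p = 0.597). Without sgControl replicate 1 it was 0.13 with an adjusted p of 0.00463, so whether Cdk4 was called turned on that library. Cdk4 shares 641 exon bases with Tspan31 on the opposite strand, and Tspan31 was at 63.2 to 66.2 CPM in the 5 libraries.

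Cdk6, the second D cyclin-dependent kinase, lies on chromosome 5 at 3341485 to 3531008 (ENSMUSG00000040274.11). It was at 144, 145 and 147 CPM in sgControl and at 133 and 147 CPM in sgMef2d. The groups overlapped, and within sgMef2d replicate 2 was 10.2% above replicate 1. The log2 fold change was -0.06 (SE 0.0618, 95% interval -0.19 to 0.08, adjusted p = 0.644). Its sign turned with the processing, to 0.01 without sgMef2d replicate 1 and to 0.09 with a trend in gene length and GC content removed. In both groups, most CDK4/6 kinase RNA per length was Cdk4, at 92.8% ± 0.533 (SD, n = 3) in sgControl and 93.3% ± 0.356 (SD, n = 2) in sgMef2d.

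**Figure D2:**
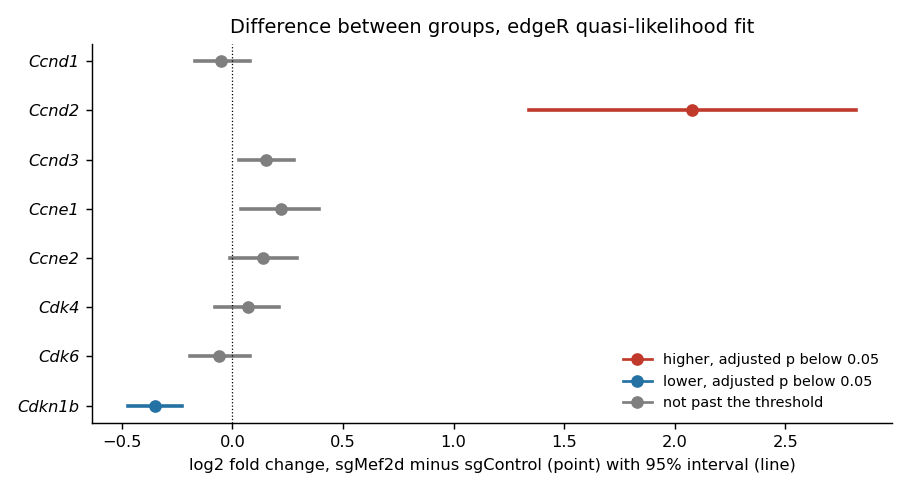
Fitted log2 fold change of each listed gene (x axis, sgMef2d minus sgControl) with its 95% interval, from the fit of all 5 libraries. With all libraries the intervals of Ccnd2 (1.34 to 2.82) and Cdkn1b (-0.47 to -0.23) lie farthest from 0, and those of Ccnd1, Cdk4, Cdk6 and Ccne2 include 0.

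Ccne1 and Ccne2 encode cyclins E1 and E2, the activating subunits of CDK2 at the entry to S phase. Ccne1 (ENSMUSG00000002068.16) lies on chromosome 7 at 38097984 to 38107534. It was at 32.8, 32.3 and 31.7 CPM in sgControl and at 35.4 and 39.8 CPM in sgMef2d. The 3 controls lay close together, and sgMef2d replicate 2 was 12.5% above replicate 1. The log2 fold change was 0.22 (SE 0.0797, 95% interval 0.04 to 0.39), which did not pass over all genes (adjusted p = 0.128) and passed without sgControl replicate 1 (0.23, adjusted p = 0.0186). No other annotated exon overlaps Ccne1, and 0% of its 50-base words recur.

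Ccne2 (ENSMUSG00000028212.16) lies on chromosome 4 at 11191351 to 11204779. Its level was 73, 67.7 and 67.3 CPM in sgControl and 79.1 and 73.8 CPM in sgMef2d. The lowest sgMef2d library was just above sgControl replicate 1, which was itself 8.13% above the mean of the other controls. The log2 fold change was 0.14 (SE 0.068, 95% interval -0.01 to 0.29, adjusted p = 0.246). It reached an adjusted p of 0.0085 without sgControl replicate 1 (0.18) and 0.0348 with the length and GC trend removed (0.20). Ccne2 overlaps Ints8 by 609 exon bases on the opposite strand, and Ints8 was at 134 to 140 CPM in sgControl and at 128 and 129 CPM in sgMef2d. Of E cyclin RNA per length, Ccne2 made up 58.8% ± 0.791 (SD, n = 3) in sgControl and 57.5% ± 3.23 (SD, n = 2) in sgMef2d, shares that overlapped.

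Cdkn1b encodes p27KIP1, an inhibitor of cyclin E-CDK2 that also takes part in the assembly of cyclin D-CDK4 complexes. The gene (ENSMUSG00000003031.14) lies on chromosome 6 at 134920401 to 134925513. It received 5649, 3803 and 3689 counts in sgControl and 3606 and 3171 counts in sgMef2d, or 275, 270 and 270 CPM against 212 and 214 CPM. The libraries of each group lay within a few CPM of each other, and the groups were well apart. Cdkn1b averaged 272 ± 3.14 CPM (SD, n = 3) in sgControl and 213 ± 0.932 CPM (SD, n = 2) in sgMef2d, and the log2 fold change was -0.35 (SE 0.0544, 95% interval -0.47 to -0.23, adjusted p = 0.00254). Its rank by p among the 12483 genes was 202. No annotated exon overlaps Cdkn1b on either strand and 0% of its 50-base words recur, so its counts do not depend on the strand setting or on a near-identical copy. With a single sgMef2d library left, the fold change held (-0.35 without replicate 1 and -0.36 without replicate 2) but the adjusted p was 0.0774 and 0.073, and without sgControl replicate 1 it was 4.09e-12.

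The promoter of Cdkn1b is shown because it is the gene whose well-measured RNA changed. That of Cdk4, which was not called, is shown because its window holds a rare repeat of the E-box, a site of MYC family factors. This repeat was picked from a search for several motifs in all windows, so its rarity is that of a chosen case. A part of MYC factors in the Cdk4 level was not tested. Each line gives the 250 bases before the RefSeq start in GRCm38.p6, on the plus strand, as chr6:134920151-134920400 for Cdkn1b and chr10:127063285-127063534 for Cdk4. Capitals mark CCAAT boxes, to which NF-Y binds, in Cdkn1b and E-boxes (CACGTG) in Cdk4.
Cdkn1b: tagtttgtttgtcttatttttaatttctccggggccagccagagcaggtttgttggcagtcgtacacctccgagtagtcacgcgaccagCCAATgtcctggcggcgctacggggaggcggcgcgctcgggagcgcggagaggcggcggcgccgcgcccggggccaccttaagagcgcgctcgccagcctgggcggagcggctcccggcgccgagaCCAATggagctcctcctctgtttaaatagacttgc
Cdk4: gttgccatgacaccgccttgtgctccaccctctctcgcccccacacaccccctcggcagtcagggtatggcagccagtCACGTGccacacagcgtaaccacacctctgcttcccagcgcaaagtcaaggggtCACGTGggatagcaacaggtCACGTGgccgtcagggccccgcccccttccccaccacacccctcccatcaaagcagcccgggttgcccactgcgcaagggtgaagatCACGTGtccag

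The CCAAT boxes of Cdkn1b start 161 and 35 bases before the start of transcription. On both strands, 33.8% of 32817 promoter windows of this length hold at least 1 CCAAT and 10.1% hold 2 or more. The E-boxes of Cdk4 start 172, 118, 98 and 11 bases before its start. At least 1 CACGTG stands in 6.02% of windows, 2 or more in 0.43%, and 4 or more in 0.0213%, which is 7 windows. The window tables held Ccnd3, Ccne1, Cdk4, Cdk6, Cdkn1b, Cdkn2a and Cdkn2b. For MEF2, only CTA and TAG with any 4 bases between them were searched, a pattern that 3.2% of all windows hold. Other forms of a MEF2 site were not searched. In none of the windows of these genes did this MEF2 pattern occur, nor the letters TGANTCA of an AP-1 site (6.75%). The letters TTTGGCGC (0.417%), TTTCGCGC (0.256%) and GGCGGGAA (1.85%) of an E2F site did not occur in them either. The FOXO letters GTAAACA (3.16%) occurred in 1 of the Ccnd3 windows. These are matches of letters in a short window and not evidence of binding.

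Cdkn2a and Cdkn2b stand side by side on chromosome 4, at 89274471 to 89294653 and 89306299 to 89311039. Every listed gene had at least 11 counts in some library, and neither inhibitor was among them. Mtap, a purine salvage gene that neighbours the pair, was listed at 252, 244 and 239 CPM in sgControl and at 265 and 267 CPM in sgMef2d (log2 fold change 0.12, adjusted p = 0.223). Without sgControl replicate 1 the Mtap difference was 0.14 (adjusted p = 0.00364). Among the other inhibitors of CDK4 and CDK6, Cdkn2c (p18) was at 90.4, 83.8 and 85.7 CPM in sgControl and at 81.6 and 86.9 CPM in sgMef2d (log2 fold change -0.04, adjusted p = 0.75). Cdkn2d (p19INK4d) gave a log2 fold change of 0.01 (adjusted p = 0.966).

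Cdkn1a, the p53-responsive inhibitor p21CIP1, moved against its relative Cdkn1b. It was at 46.5, 46.6 and 44.3 CPM in sgControl and at 65.6 and 65.3 CPM in sgMef2d, so that both sgMef2d libraries were above every control. The log2 fold change was 0.52 (SE 0.0653, adjusted p = 7.88e-04). Per length, Cdkn1b made up 73%, 72.6% and 73.6% of the summed Cdkn1a and Cdkn1b RNA in sgControl and 59.6% and 59.9% in sgMef2d. Their sum was 191, 198 and 199 TPM (counts per length scaled to 1000000 a library) in sgControl and 181 and 181 TPM in sgMef2d. With the summed exon length in place of the longest coding transcript, Cdkn1b averaged 209 TPM in sgControl and 159 TPM in sgMef2d, and Cdkn1a 45.1 and 62.5 TPM. The 2 genes moved in opposite directions with either length. How far their shares shifted beside their total depends on the length used.

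**Figure D3:**
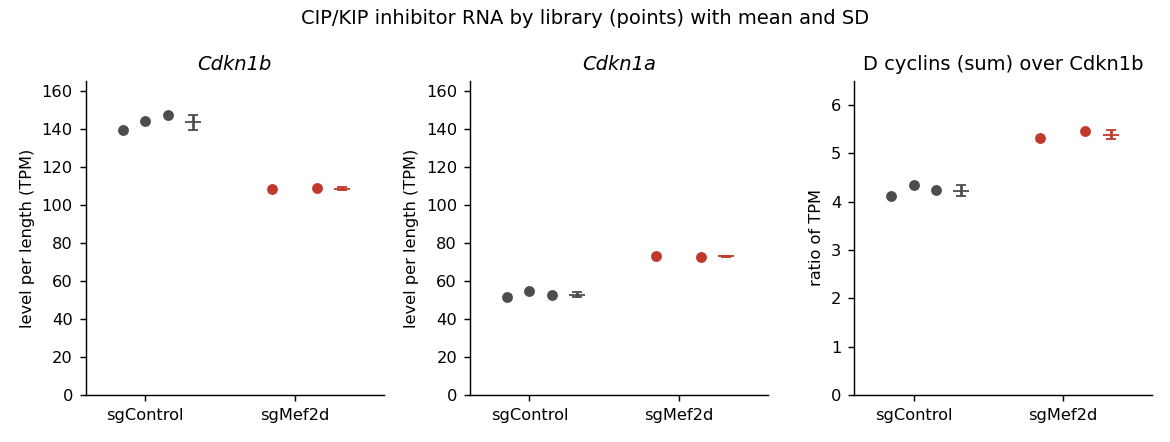
Levels per length of Cdkn1b and Cdkn1a in each library (TPM) and the ratio of summed D cyclin RNA to Cdkn1b RNA (no unit), with 1 point a library. Cdkn1b is lower and Cdkn1a higher in both sgMef2d libraries, and the ratio is 5.32 and 5.46 in sgMef2d against 4.11 to 4.34 in sgControl.

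To compare the genes with one another, counts were divided by the length of the longest coding transcript and scaled to TPM over the listed genes. In sgControl, the order of levels was Ccnd1 (481 ± 23.9 TPM, SD, n = 3), Cdk4 (389 ± 14.4), Cdkn1b (143 ± 3.73), Ccnd3 (125 ± 5.91), Ccne2 (55.3 ± 0.595), Ccne1 (38.7 ± 0.872), Cdk6 (30.3 ± 1.43) and Ccnd2 (0.18 ± 0.0186). The libraries of neighbours in this order did not overlap. Ccnd1 was above 97.8% of the listed genes by level per length and Cdk4 above 97.1%, whereas Ccnd2 was above 0.688%. In sgMef2d, Ccnd3 (134 ± 0.798 TPM, SD, n = 2) was above Cdkn1b (108 ± 0.405), and the rest of the order was the same. The place of Ccnd3 in the order depends on the length used. With its summed exon length, which is 8775 bases against 2113, its level was 44 TPM in sgControl and 47.3 TPM in sgMef2d, below Cdkn1b in both groups. On that scale it was also below Ccne2 in both groups (69.5 and 74.1 TPM) and just below Ccne1 in sgMef2d (47.9 TPM).

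**Figure D4:**
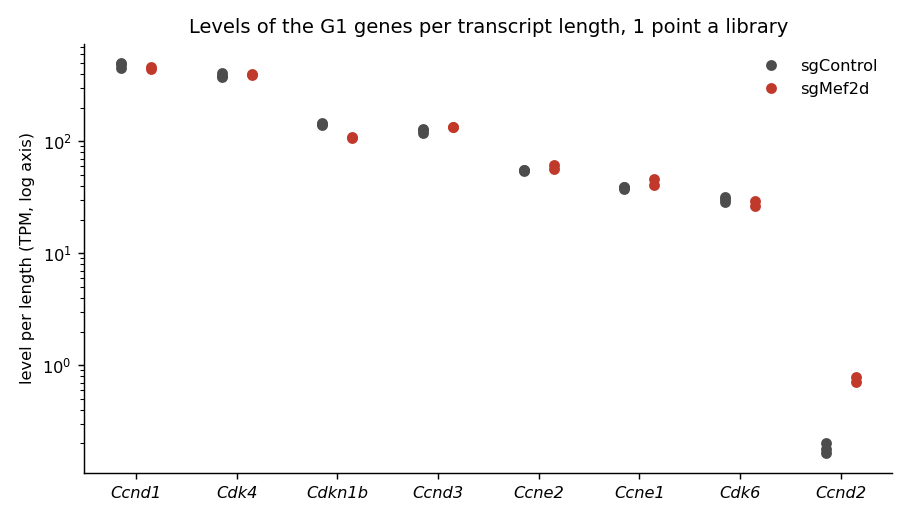
Level per length of each listed gene (TPM, log axis) in sgControl and sgMef2d, with 1 point a library. The levels run from 0.18 TPM for Ccnd2 to 481 TPM for Ccnd1 as sgControl means, and the points of neighbouring genes within a group do not overlap.

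Ratios of activator to inhibitor RNA depended on the inhibitor: relative to Cdkn1b they were higher in the sgMef2d libraries, and relative to Cdkn1a they were lower. The ratio of summed D cyclin RNA to Cdkn1b RNA, both per length, was 4.11, 4.34 and 4.24 in sgControl and 5.32 and 5.46 in sgMef2d, while the D cyclin sum itself overlapped between the groups (572 to 624 against 574 and 593 TPM). For the E cyclins the ratio was 0.672, 0.653 and 0.644 in sgControl and 0.944 and 0.948 in sgMef2d, with sums of 93.6 to 94.4 and 102 to 103 TPM. Cdk4 to Cdkn1b went from 2.91, 2.63 and 2.62 to 3.62 and 3.66, and Cdk2 to Cdkn1b from 0.461, 0.458 and 0.467 to 0.648 and 0.662. All 4 ratios share as denominator the Cdkn1b level, which fell. With Cdkn1a as the denominator, the D cyclin ratio was 11.1, 11.5 and 11.8 in sgControl and 7.86 and 8.16 in sgMef2d, and the E cyclin ratio was 1.82, 1.73 and 1.8 against 1.39 and 1.42. With the sum of both inhibitors, the D cyclin ratio was 3, 3.15 and 3.12 against 3.17 and 3.27, close to each other, and the E cyclin ratio was 0.491, 0.474 and 0.474 against 0.563 and 0.568. These are RNA ratios, not amounts of protein.

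The genes around these regulators were described by 7 lists with 154 genes, of which 148 were listed and tested. In all, 15 were higher and 1 was lower (10.8% called, beside 7.95% of all genes tested), and without sgControl replicate 1, when 29.4% of all genes were called, 46 were higher and 14 lower. Over the 148 genes the median was 0.05 on the log2 scale. Among 10 tested partners of the CDK4/6 holoenzyme, 1 was higher (Cdkn1a) and 0 were lower in edgeR's quasi-likelihood test. At an unadjusted p below 0.05 the counts were 1 and 1, where 23.2% of all genes tested pass in either direction, and DESeq2 and limma-voom each called 1 higher and 0 lower. Rb1, the retinoblastoma gene and the target of these kinases, was at 13.6, 14 and 15.1 CPM in sgControl and 14.1 and 15.4 CPM in sgMef2d (log2 fold change 0.05, adjusted p = 0.825). Ambra1, whose product directs the degradation of D-type cyclins, gave 0.02 (adjusted p = 0.927).

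Of the 13 tested genes of cyclin E-CDK2 activation and degradation, 0 passed in edgeR, DESeq2 or limma-voom. In edgeR 7.95% of all genes tested were called, a share at which few calls would be seen in a list of this size. At an unadjusted p below 0.05, there were 3 higher and 0 lower (23.2% of all genes pass), and without sgControl replicate 1 the adjusted test called 5 higher, beside 1804 of 12377 genes called higher over the whole table. Cdk2, the kinase of the E cyclins, was at 67, 65.3 and 66.8 CPM in sgControl and at 72.7 and 74.7 CPM in sgMef2d, with no overlap (log2 fold change 0.15, adjusted p = 0.169, and 0.0255 without sgControl replicate 1). Skp2, which marks p27 for degradation, gave -0.12 (adjusted p = 0.469), and Fbxw7, which does so for cyclin E, gave 0.05 (adjusted p = 0.779).

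Of the 19 pocket protein, E2F and DREAM genes tested, 1 was higher and 0 were lower in edgeR, DESeq2 and limma-voom. This is 5.26% of the list, beside 7.95% of all genes called in edgeR. At an unadjusted p below 0.05 there was 1 higher and 2 were lower, beside 23.2% of all genes. The gene that rose was E2f2, an activating E2F, which went from 24, 25.7 and 27.6 CPM to 38.8 and 35.2 CPM (log2 fold change 0.53, SE 0.0878, adjusted p = 0.00389, and 0.096 without sgMef2d replicate 1). E2f1 gave 0.09 (adjusted p = 0.466). Of 36 E2F target genes of S phase entry, 3 were higher and 0 lower, a share of 8.33% that is close to the 7.95% over all genes. A positive fold change was seen for 31 of the 36 (median 0.09) and for 6326 of the 12483 genes tested. DESeq2 called 2 of them higher and limma-voom 3, each with 0 lower, and at an unadjusted p below 0.05 there were 9 higher and 1 lower, beside 23.2% of all genes in either direction. The 3 that rose make or protect thymidine nucleotides. Tk1, the thymidine kinase, went from 119, 117 and 118 CPM to 142 and 149 CPM (log2 fold change 0.30, adjusted p = 0.00762). Dut, the dUTPase, gave 0.30 (adjusted p = 0.0298), and Tyms, the thymidylate synthase, gave 0.25 (adjusted p = 0.0344), and these calls were lost in 4 (Dut) and 6 (Tyms) of 15 alternatives. Without sgControl replicate 1, 15 of the 36 targets were called higher, beside 1804 of all 12377 genes in that fit.

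Among the 20 tested regulators of the Ink4/Arf locus and of the ARF-p53 arm, 4 were higher and 0 lower (5 and 1 at an unadjusted p below 0.05, which 23.2% of all genes pass, while DESeq2 and limma-voom each called 3 and 0). This is 20% of the list beside 7.95% of all genes, and without sgControl replicate 1, when 29.4% of all genes were called, the counts were 9 higher and 2 lower. Tbx3, a repressor known to act on the Cdkn2a locus, went from 7.02, 7.8 and 6.82 CPM to 12.1 and 11.9 CPM (log2 fold change 0.73, adjusted p = 0.00413). Cbx2, a Polycomb subunit, went from 26, 26.9 and 24 CPM to 33.9 and 34.2 CPM (0.41, adjusted p = 0.011). Ets2, which is known to activate Cdkn2a, went from 120, 127 and 130 CPM to 164 and 160 CPM (0.36, adjusted p = 0.00356). Thus repressors and an activator of the locus were both among the genes that rose. Mdm2, the ligase that degrades p53, was the least firm of the 4 (0.24, adjusted p = 0.048) and lost its call in 9 of 15 alternatives.

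Of the 23 tested transcription factors known to act on Ccnd1, Cdkn1b or Cdkn2b, 5 were higher and 1 was lower, a share of 26.1% beside 7.95% of all genes. DESeq2 called 5 and 0 and limma-voom 5 and 1, at an unadjusted p below 0.05 the counts were 9 and 4 (23.2% of all genes), and without sgControl replicate 1 the adjusted test called 8 higher and 7 lower (29.4% of all genes). Fosl1, an AP-1 subunit, went from 60.8, 64.1 and 61.1 CPM to 83.7 and 85.7 CPM (log2 fold change 0.45, adjusted p = 0.00125). Myc went from 180, 191 and 191 CPM to 237 and 225 CPM (0.30, adjusted p = 0.00885). Stat3 (0.28, adjusted p = 0.0143) and Klf5 (0.39, adjusted p = 0.0227) also rose, as did Junb (0.24, adjusted p = 0.0393), which is named after its value was seen and lost its call in 6 of 15 alternatives. Foxo1, a factor of the FOXO family that activates Cdkn1b, fell from 33.1, 35.2 and 35.7 CPM to 26.4 and 28.3 CPM (log2 fold change -0.34, adjusted p = 0.0267). Its relatives Foxo3 (0.13, adjusted p = 0.41) and Foxo4 (-0.05, adjusted p = 0.794) were not called, and are named after their values were seen. Foxo3 had more RNA than Foxo1, at a mean of 70.6 CPM in sgControl and 77.2 CPM in sgMef2d. Stat3 lost its call in 3 of 15 alternatives, and Klf5, Myc, Tk1, Ets2, Tbx3 and Cbx2 lost theirs in 2, each with a single sgMef2d library left. The call for Foxo1 was lost in 6 of 15 alternatives, among them DESeq2 (adjusted p = 0.0515) and the removal of the length and GC trend (-0.23, adjusted p = 0.0646). Of the 27 other cyclins and cyclin-dependent kinases tested, 1 was higher (Ccng1, a p53 target, 0.24, adjusted p = 0.0314, lost in 5 of 15 alternatives) and 0 were lower in edgeR, DESeq2 and limma-voom. This is 3.7% of the list, beside 7.95% of all genes called in edgeR. At an unadjusted p below 0.05 there were 4 higher and 2 lower, beside 23.2% of all genes.

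**Figure D5:**
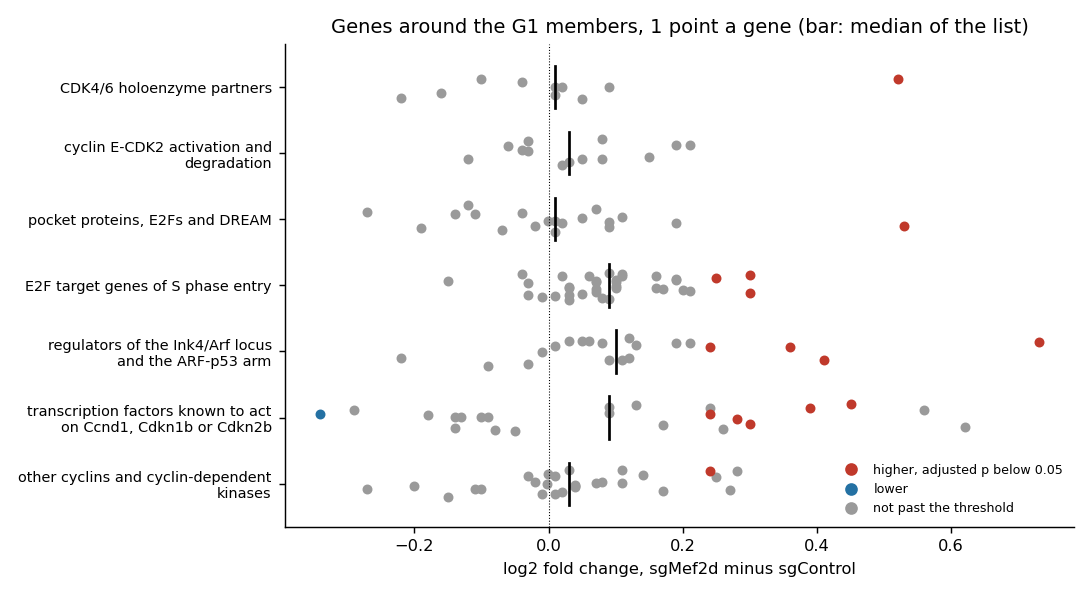
Fitted log2 fold changes (x axis, sgMef2d minus sgControl) of the 148 tested genes around the G1 regulators, by list, with 1 point a gene and a bar at each list's median. The 15 genes called higher are red, the 1 called lower (Foxo1) is blue, and the medians lie between 0.01 and 0.10.

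The genes with the profile most like that of each called gene were sought among genes whose log2 CPM averaged 4 or more, by the root mean square difference of centred log2 CPM over the 5 libraries. For Cdkn1b they included Nrg1 (difference 0.0144, log2 fold change -0.36) and Rbm41 (0.0164, -0.33) of 8044 genes compared. For Ccnd2 they were Adam19 (0.103, 1.67), Pitx1 (0.137, 2.14) and Vim (0.195, 1.59) of 8045. With 5 libraries in 2 groups, such a likeness is mostly that of the group difference.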

How the data were processed

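Poly(A)-selected, dUTP strand-marked libraries were sequenced from the 5 samples, and groups were taken from the sample titles. The authors aligned reads to GRCm38 with a GENCODE annotation using STAR, checked them with FASTQC and RSeQC, and deposited whole-number counts per gene with genes of low counts left out. The submitters' processing notes also name CASAVA and Subread. Full version numbers of STAR and Subread and the strand setting of the counting are not given in the sources used here. A column of gene identifiers was matched to GENCODE M21 for names, coordinates and lengths (12934 of 12934 matched, 12811 of them with the identifier's version and the rest without it). The methods name another GENCODE release than M21. No entry lacked a gene name.

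Counts were fitted with edgeR 4.0.16 in R 4.3.3 (TMM factors 0.996 to 1, filterByExpr by group, bias-adjusted glmQLFit, glmQLFTest) over all 5 libraries without covariates. Adjusted p-values are Benjamini-Hochberg values over the 12483 genes tested, with a threshold of 0.05. The biological coefficient of variation was 0.0607. CPM values are counts per 1000000 of the library total times its TMM factor (the totals alone for the Poisson intervals and for the value of 3 counts). On simulated counts for 12321 genes, the fit recovered 74 of 100 genes changed by 0.5 on the log2 scale and 87 of 100 changed by 1, and called 22 of 12123 unchanged genes. These 22 were a larger share of all its calls than the threshold of 0.05 implies on average. The simulated libraries of a group shared 1 mean for each gene, so none stood apart as sgControl replicate 1 does in the data. DESeq2 1.42.0, limma-voom (limma 3.58.1), other scalings and filters, a replicate block, a length and GC trend (loess, span 0.3) and leaving out each library were tried as alternatives. Levels per length with summed exon length, the Poisson intervals and the ratios to Cdkn1a were added after seeing the data.

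The genes and lists were chosen with earlier results of these data known. Named were the 10 genes, Mef2d, up to 4 called genes of each list in each direction by smallest p, set partners of the 10 genes, and the 3 nearest profiles, of which 1 is not reported here. Promoter sequences are from RefSeq (GRCm38.p6), and windows were present for 7 of the 10 genes.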

Additional observations from a re-analysis of the deposited data

How the results depend on the processing

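Of 119 values of the 8 genes under alternatives, 109 kept their direction and their side of the threshold, 3 lost the call, 5 gained it and 2 changed sign. Cdkn1b kept its direction in every alternative run (log2 fold change -0.36 to -0.29, adjusted p 4.09e-12 to 0.0774) and lost the call only with a single sgMef2d library left, which is then assumed to vary like sgControl. Under the stricter filter 0 of the genes were called higher, because Ccnd2 was removed (2 at an unadjusted p below 0.05), and with the length and GC trend removed 2 were. Leaving out a library gave 0 to 5 higher and 0 to 1 lower. The counts of 0 came without sgMef2d replicate 1 (lower) or 2 (both directions), each with 1 gene at an unadjusted p below 0.05, and the count of 5 came without sgControl replicate 1. Cdk6 changed sign with the trend removed (0.09) and over left-out libraries (-0.13 to 0.01). Over left-out libraries Cdkn2d ran from -0.16 to 0.15, Rb1 from -0.02 to 0.11, Fbxw7 from -0.0024 to 0.09 and Ambra1 from -0.07 to 0.08, and Cdkn2d was at -0.06 with the trend removed.

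Of the other G1 genes, leaving out a library called 2 to 46 higher and 0 to 14 lower, the highest counts without sgControl replicate 1 and the lowest count higher without sgMef2d replicate 1. The number lower was 0 with DESeq2 (8 at an unadjusted p below 0.05), 3 with the trend removed and 3 at a threshold of 0.10. At a threshold of 0.01, 7 were higher and 0 were lower (the latter 11 at an unadjusted p below 0.05). With the replicate block 2 were lower, Cdkn2d was at -0.02, and 1254 genes were called in place of 992, with 1 of the 8 genes higher and 1 lower. Deviations of same-numbered libraries correlated at 0.01 and -0.00, so the numbers were not taken to pair them. Causes were not tested. Genes called over the whole table ranged from 234 without sgMef2d replicate 2 to 3639 without sgControl replicate 1.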
